A study of Mus musculus with 7 samples.

Results

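Pax6, Emx1, Emx2, Nkx2-1, Nkx6-2, Hopx, Zic1, Lhx2 and Otx1, 9 of the 32285 genes in the count matrices, are regional identity factors of the forebrain that have been used to tell dorsal from ventral positions in the wall of the lateral ventricle. They were taken by symbol from a list of such factors, and all 9 symbols were found once each. The rule itself uses no measured value, but the list was chosen with earlier results of these data known. Their transcripts were counted in single cells from the ventricular-subventricular zone (V-SVZ), the neural stem cell niche of the postnatal forebrain, from mice with and without the transcriptional regulator Prdm16. The question was how the factors were distributed over the cells of the stem cell lineage and whether their levels differed between genotypes.

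The 3 control libraries carried floxed Prdm16 alleles without Cre, a genotype that the labels spell Prdmflox/flox. The Prdm16 cKO libraries, also 3, were hGFAP-Cre+/-; Prdm16flox/flox, and the single DKO library was hGFAP-Cre+/-; Prdm16flox/flox; Vcam1flox/flox, so that floxed Prdm16 alleles were shared by all 7 libraries. The Cre was driven by a human GFAP promoter, which is active in radial glia before birth and in the astrocytes and stem cells that descend from them, so that microglia, endothelial and mural cells lie outside its lineage. Each library pooled the lateral walls of 2 to 3 mice aged 31 to 33 days, of both sexes, and the library was the unit of replication. The study took littermates without Cre as controls, but no source used here ties a litter or a preparation day to a library, so p-values measure the spread between these pools.

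Positional identity in the V-SVZ is laid down in the embryo, when homeodomain and zinc-finger transcription factors divide the ventricular wall into dorsal (pallial), lateral and ventral territories. Neural stem cells (NSCs, type B cells) descend from the radial glia of their own territory, pass through transit amplifying precursors (TAPs, type C cells) to neuroblasts (type A cells), and the kind of olfactory bulb neuron that they make depends on where they sit. Dorsal stem cells are known for Pax6 and Emx1, ventral stem cells for Nkx2-1 and Nkx6-2.

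After cells with 500 to 7000 detected genes and at most 10% mitochondrial UMIs (unique molecular identifiers, each counting an RNA molecule) were kept, 43346 cells remained. The libraries held 1868 to 9502 kept cells with median depths of 4959.5 to 8317.5 UMIs. The share of barcodes kept was 49.8% in cKO library 2 and 47.2% in cKO library 3, and 70.2 to 74.7% in the other libraries. Clusters were named from marker genes, with 5324 NSC-like, 2501 astrocyte-like, 3247 TAP-like and 7781 neuroblast-like cells. All 8 astrocyte markers were also raised in the NSC-like cluster, so its border with astrocytes is a matter of degree. Prdm16 itself was counted in NSC-like cells at 75.1, 63.0 and 69.0 CPM (counts scaled to the library's total UMIs in those cells) in control libraries 1 to 3, at 55.65, 51.5 and 45.6 in cKO libraries 1 to 3 and at 56.2 in the DKO library. All 3 cKO libraries lay below all controls, where 8.21% of all genes did so. In astrocyte-like cells Prdm16 overlapped, at 52.1, 46.4 and 45.7 CPM in controls against 46.2, 60.4 and 51.1 CPM in cKO. A 3′ count of transcripts does not read the deleted exons and does not measure recombination. Prm1, a protamine gene not expected in brain, gave another mark of genotype, as its UMIs were found in 0% of NSC-like cells in each control library and in 26.3%, 69.8% and 76.7% of those in cKO libraries 1, 2 and 3 and 39.9% of those in the DKO library. These shares were not adjusted for depth, and NSC-like cells had median depths of 5286.5, 11327 and 10426 UMIs in cKO libraries 1 to 3. In CPM, Prm1 was at 153, 325 and 438 in cKO libraries 1 to 3 and at 161 in the DKO library. By both counts cKO library 1 was the cKO library nearest to the controls, and values with and without it are given where it decides a call.

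All 9 genes had a position in the GRCm38 annotation. Pax6 lies on chromosome 2 at 105668900 to 105697364 (plus strand) and Lhx2 on the same chromosome at 38339281 to 38369733 (plus strand). Emx1 lies on chromosome 6 at 85187438 to 85204462 (plus strand), Emx2 on chromosome 19 at 59458372 to 59465357 (plus strand), and Hopx on chromosome 5 at 77086988 to 77115121 (minus strand). Nkx2-1 lies on chromosome 12 at 56531958 to 56536908, Nkx6-2 on chromosome 7 at 139579376 to 139582797, Zic1 on chromosome 9 at 91358058 to 91365810 and Otx1 on chromosome 11 at 21994764 to 22002897, all on the minus strand. Several overlap a gene on the opposite strand, among them Pax6os1, Emx2os, Hopxos and Zic4, and the 3′ libraries are counted by strand. The 250 bases before the RefSeq start of Pax6, Lhx2 and Hopx are shown because these were the members with a window outside annotated exons that were lower together in NSC-like cells of cKO libraries 2 and 3. CpG dinucleotides, the sites of DNA methylation, are in capitals. The windows are chr2:105668646-105668895 (plus strand), chr2:38339031-38339280 (plus strand) and chr5:77115124-77115373 (minus strand) of GRCm38, 5′ to 3′:
Pax6: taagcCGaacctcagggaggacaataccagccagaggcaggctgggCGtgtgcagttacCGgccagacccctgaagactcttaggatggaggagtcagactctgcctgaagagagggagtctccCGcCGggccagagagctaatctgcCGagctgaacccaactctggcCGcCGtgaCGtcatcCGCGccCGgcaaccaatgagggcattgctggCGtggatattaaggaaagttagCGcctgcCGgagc
Lhx2: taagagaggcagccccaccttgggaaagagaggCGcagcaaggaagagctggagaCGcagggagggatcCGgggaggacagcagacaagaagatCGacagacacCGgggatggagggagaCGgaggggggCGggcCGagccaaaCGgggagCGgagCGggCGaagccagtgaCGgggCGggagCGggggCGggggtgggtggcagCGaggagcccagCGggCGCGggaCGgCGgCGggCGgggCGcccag
Hopx: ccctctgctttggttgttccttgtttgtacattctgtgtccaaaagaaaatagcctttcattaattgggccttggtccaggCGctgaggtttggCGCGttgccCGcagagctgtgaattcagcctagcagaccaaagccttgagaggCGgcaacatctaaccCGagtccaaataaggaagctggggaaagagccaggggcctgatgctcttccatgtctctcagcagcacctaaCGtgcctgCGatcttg
The Lhx2 window was the richest of the 3 in GC, at 72.8% with 25 CpG dinucleotides, against 60.8% and 15 for Pax6 and 52.4% and 8 for Hopx. The median GC content over 32851 RefSeq windows of this length was 52.4%, so that Hopx sat at the median. The homeodomain core TAATTA, read on both strands, was in none of the 11 windows found for 8 of the members and in 4.84% of all windows, which says nothing about the factors that bind there. Otx1 is only named.

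The members fell into 3 kinds by where they were counted among 11 named cell types. Pax6, Emx2, Lhx2 and Otx1 were genes of the stem cell lineage and its astrocytes. Lhx2, a LIM-homeodomain factor that keeps cortical identity in progenitors, averaged 315 CPM over the 7 libraries in astrocyte-like cells (range 222 to 422) and 275 CPM in NSC-like cells (138 to 392), which overlapped. It was lower in TAP-like cells (138 CPM, 122 to 183) and in ependymal-like cells (61.8 CPM on average). Pax6, a paired-homeodomain factor needed for dorsal progenitors and for dopaminergic neurons of the olfactory bulb, was highest in TAP-like cells at 153 CPM (144 to 186), above every library of the astrocyte-like cells (86.3 CPM, 67.5 to 106). Its levels in neuroblast-like cells (101 CPM, 61.9 to 144) and NSC-like cells (99.6 CPM, 51.9 to 138) were not apart. Emx2, a dorsal homeodomain factor that sets the size of cortical areas, ran at 51.2 CPM in NSC-like cells (29.4 to 66.2), 47.7 CPM in astrocyte-like cells (32.3 to 58.0) and 34.5 CPM in TAP-like cells (23.5 to 56.7), all overlapping. Otx1, an orthodenticle homeodomain factor of forebrain and midbrain, was level across astrocyte-like, TAP-like and NSC-like cells at 23.6, 21.4 and 20.2 CPM.

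Nkx6-2, Hopx and Zic1 had their highest mean levels outside the stem cell lineage, for Hopx with a range that overlapped that of astrocyte-like cells. Nkx6-2, a homeodomain factor of ventral progenitors that myelinating cells also use, averaged 505 CPM in oligodendrocyte-like cells (423 to 603) and 92.0 CPM in oligodendrocyte precursor-like cells (40.2 to 129), against 62.2 CPM in NSC-like cells (44.4 to 78.0). Zic1, a zinc-finger factor of the dorsal midline, septum and meninges, averaged 551 CPM in mural-like cells (419 to 691) and 16.6 CPM in neuroblast-like cells (5.09 to 40.0). Hopx, an atypical homeodomain protein that binds no DNA itself and marks quiescent stem cells, was at 104 CPM in mural-like cells (53.4 to 255), 57.6 CPM in astrocyte-like cells (18.8 to 115) and 19.5 CPM in NSC-like cells (8.59 to 29.1). A Hopx UMI was also held by 577 of 2765 ependymal-like cells (median depth 2785 UMIs), against 600 of 2501 astrocyte-like cells (7374 UMIs). Emx1, the homeodomain factor of the pallium, and Nkx2-1, that of the medial ganglionic eminence, were counted rarely everywhere. Emx1 averaged 3.31 CPM in NSC-like cells (0 to 7.10) and 6.05 CPM in ependymal-like cells (1.47 to 10.1), while Nkx2-1 averaged 1.10 and 2.08 CPM in the same types.

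**Figure D1:**
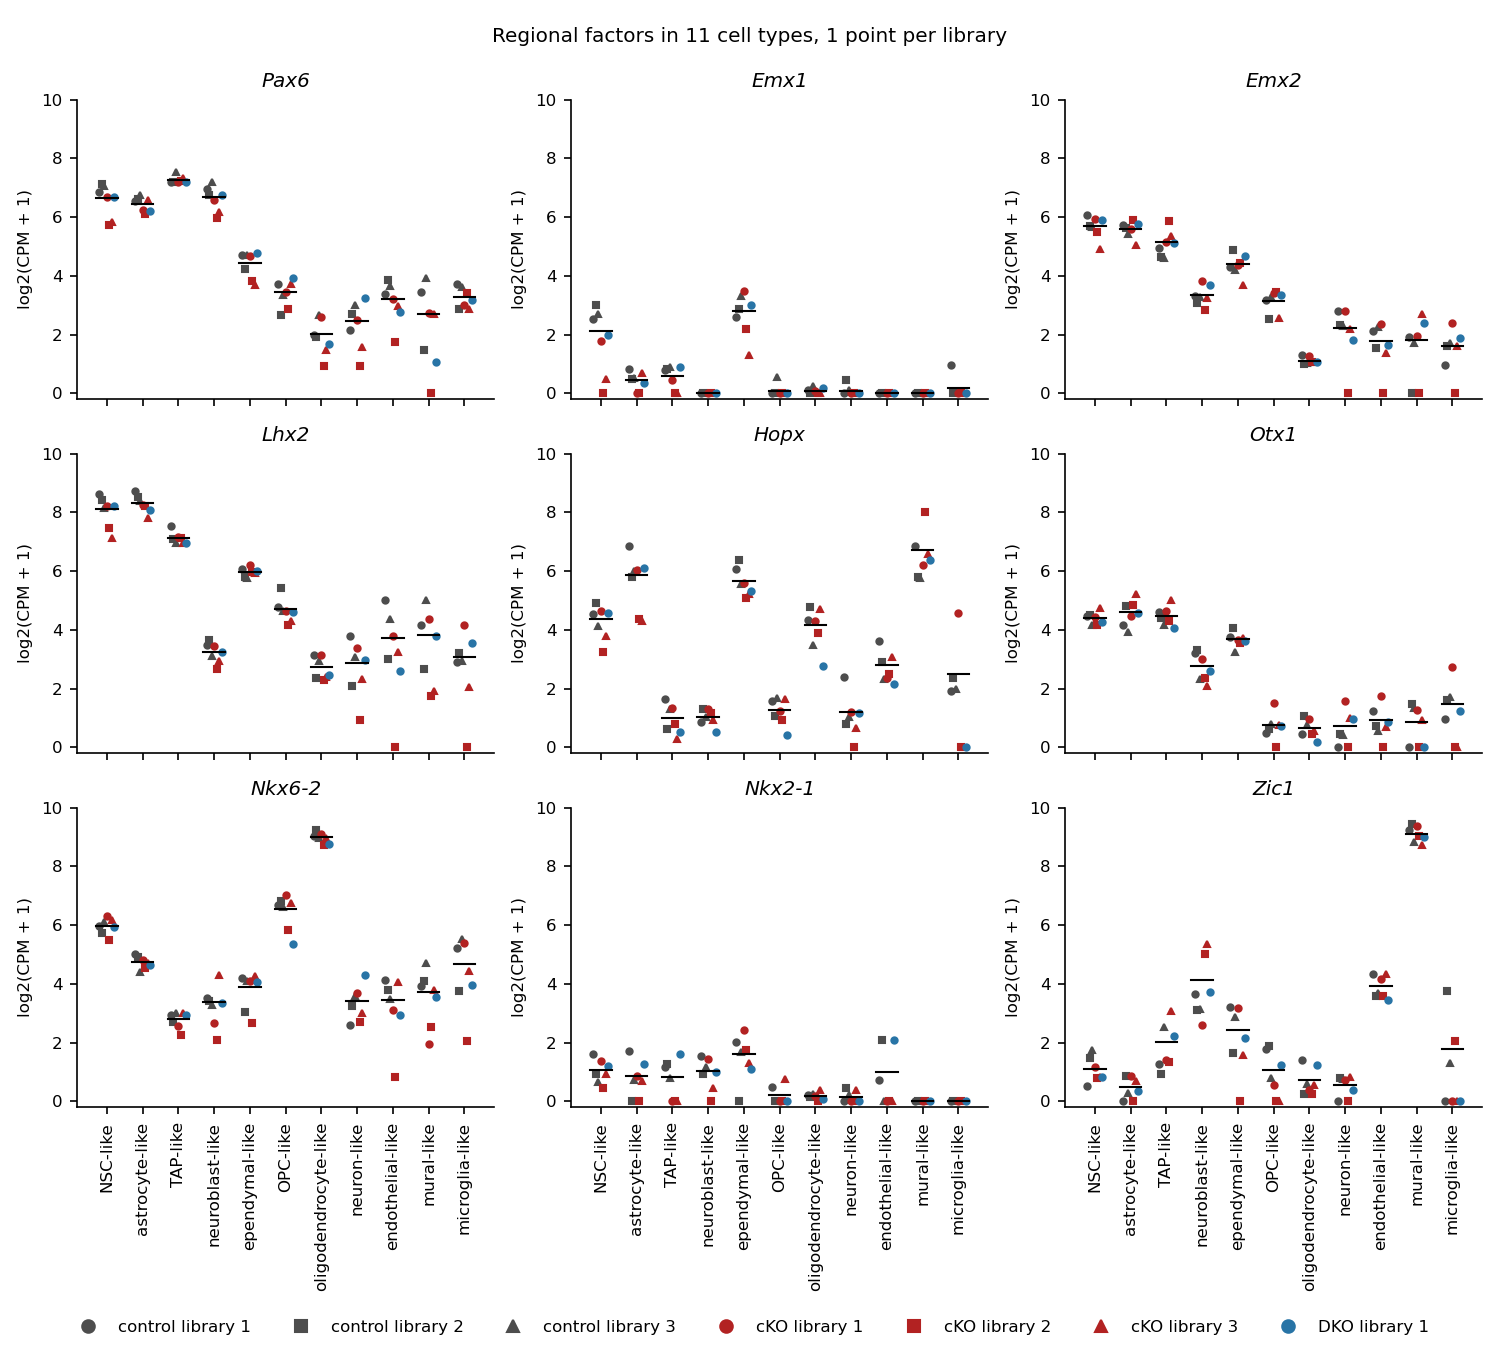
Level of each regional identity factor as log2(CPM + 1) in the 11 cell types named from markers, with a point for each of the 7 libraries (grey control, red cKO, blue DKO) and a line at the mean CPM. By mean CPM, Zic1 and Hopx were highest in mural-like cells and Nkx6-2 in oligodendrocyte-like cells, while Pax6, Emx2, Lhx2 and Otx1 were highest in NSC-like, astrocyte-like or TAP-like cells.

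Droplets carry some free RNA, so the share of cells with a UMI was read beside cells outside the lineage. Pax6 was detected in 48.3% of NSC-like cells (median depth 7395.5 UMIs) against 3.43% of endothelial-like cells (4330 UMIs) and 2.70% of microglia-like cells (4449 UMIs). Lhx2 was detected in 79.6% of NSC-like cells against 3.40% and 2.23%, Emx2 in 31.3% against 1.301% and 1.12%, and Otx1 in 13.6% against 0.47% and 0.74%. For Nkx6-2 the shares were 24.1% against 5.42% and 7.44%, for Hopx 10.9% against 2.57% and 1.302%. The 2.33% of NSC-like cells with an Emx1 UMI stood against 0% and 0.09%. The 0.69% with a Zic1 UMI was below the 3.79% of endothelial-like cells, although NSC-like cells were the deeper ones, and is not told apart from background. Zic1 was highest in mural-like cells, and 1 mural marker was also raised in the endothelial-like cluster. The endothelial-like share of Zic1 need not be the level of free RNA. Nkx2-1, at 0.68% of NSC-like cells, was at 0.14% and 0% in the same reference types.

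The gene whose level ran most like that of a member over the 11 cell types is a description only, since types share their libraries. For Lhx2 it was Nr2e1, the orphan nuclear receptor of adult stem cells (Pearson r = 0.987 over 11 types, among 15307 genes), followed by the Hedgehog effector Gli2 (0.960) and Gldc of the glycine cleavage system (0.954). Pou3f2, a POU factor of neural precursors, came first for Pax6 (0.978), before Gm11266 (0.957) and the growth factor Mdk (0.943). Msi1, the RNA-binding protein Musashi, came first for Emx2 (0.967), before Prm1 (0.959). Prm1 is the mark of genotype named above, so its level in the lineage rests on the cKO and DKO libraries. Otx1 had Emx2 among its 3 nearest (0.937), after Ptx3 (0.955) and Epb41l5 (0.938), the only case of a member near another member. The 3 nearest to Nkx6-2 were Cercam (0.970), AC163347.1 (0.949) and Gm33727 (0.943), and to Zic1 they were C1qtnf1 (0.933), Snai1 (0.930) and Nxnl2 (0.929). Exd1 (0.926), Ganc (0.915) and Abhd14b (0.901) were nearest to Hopx and Tnnt3 (0.986), Cntf (0.981) and Lrriq1 (0.969) to Emx1. Nkx2-1 was under 5 CPM and was not ranked.

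Among single NSC-like cells, members of the dorsal and ventral groups were counted together at unequal rates. Of 5324 cells, 99 held UMIs of both Emx1 and Pax6, against 59.9 from the product of their shares, and 31 held Emx1 and Hopx, against 13.5. Emx1 and Nkx6-2 met in 12 cells against 29.9, Pax6 and Nkx2-1 in 6 against 17.4, and the ventral pair Nkx2-1 and Nkx6-2 in 26 against 8.68. Pax6 and Emx2, both known as dorsal factors, met in 835 cells against 805, and Emx1 and Emx2 in 35 against 38.8. Emx2 and the ventral Nkx6-2 met in 494 cells against 402, so that not all pairs followed the division. These counts pool libraries and depend on the depth of each cell, and no test was made on them.

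To see how the other members lay along this division, NSC-like cells with an Emx1 UMI and no Nkx2-1 or Nkx6-2 UMI (dorsal-marked, 108 cells) were summed per library and set against cells with an Nkx2-1 or Nkx6-2 UMI and no Emx1 UMI (ventral-marked, 1032 cells). The 13 cells with both were left out, and the 3 marking genes were excluded from the test. An Nkx2-1 UMI was held by 11, 2 and 3 of the ventral-marked cells of control libraries 1 to 3. It was held by 7 in cKO library 1 and by 6 in the DKO library, so that Nkx6-2 set most ventral marks. Nkx6-2 was also detected in cells outside the lineage, as described above, and the part of free RNA in this mark was not tested. Control libraries 1 to 3, cKO library 1 and the DKO library had at least 10 cells on both sides (12 to 36 dorsal-marked cells each), while cKO library 2 had 0 dorsal-marked cells and cKO library 3 had 3. Library was a term of the fit, so that each library was compared with itself. Dorsal-marked cells had median depths of 4410 to 8684 UMIs and ventral-marked cells of 6651 to 11714 UMIs, so the dorsal-marked side was the shallower in each library.

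Pax6, Hopx and Otx1 were higher in dorsal-marked NSC-like cells, 3 of the 5 members tested, where 1.99% of 10120 genes were higher and 2.53% lower. Pax6 was at 257, 318, 331, 227 and 185 CPM, here after TMM scaling of the sums, in the dorsal-marked cells of control libraries 1 to 3, cKO library 1 and the DKO library, and at 46.9, 87.2, 96.0, 45.8 and 65.7 CPM in their ventral-marked cells. Every library had more Pax6 on the dorsal side and the sides did not overlap (log2 difference 1.92 ± 0.15 SE, edgeR quasi-likelihood adjusted p = 4.26e-32). Otx1 was at 50.1, 36.2, 20.7, 32.4 and 42.8 CPM against 7.31, 9.53, 10.0, 3.09 and 8.59 CPM, again without overlap (2.05 ± 0.43, edgeR adjusted p = 1.29e-04). Hopx was at 21.5, 133, 16.6, 32.4 and 42.8 CPM against 10.96, 10.99, 5.50, 8.04 and 14.2 CPM (2.28 ± 0.36, edgeR adjusted p = 3.29e-08). Hopx was higher on the dorsal side in all 5 libraries, with control library 2 far above the others, and without that library the difference was 1.48 and no longer passed (edgeR adjusted p = 0.12). Over all libraries, 25 NSC-like cells held UMIs of both Emx1 and Otx1, and 31 of both Emx1 and Hopx. The dorsal-marked levels of Otx1 and Hopx thus rest on few UMIs in each library.

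Lhx2 and Emx2 did not follow the same division. Lhx2 differed by 0.14 ± 0.13 (edgeR adjusted p = 0.773) and Emx2 by -0.38 ± 0.25 (adjusted p = 0.589), and Zic1 was too rare to test. Among other factors known as dorsal, 3 of the 4 tested were higher in dorsal-marked cells by edgeR's test, namely Tfap2c (5.59 ± 0.66), a factor of basal progenitors, Dmrta2 (4.51 ± 0.46), a doublesex-related factor of the cortical hem and pallium, and Fezf2 (1.53 ± 0.24), a zinc-finger factor of pallial progenitors. Gli3, the Hedgehog pathway repressor of dorsal forebrain, did not pass (-0.13). Of 11 ventral genes tested, 3 were lower, among them Six3, a homeodomain factor of striatal progenitors (-1.66 ± 0.20), and Ptch1, the Hedgehog receptor and target (-1.10 ± 0.19). Of 10 further regional genes, 4 were higher, among them Nr2f1, Zic2 and Zic5 (1.56, 4.17 and 2.40), and Otx2 was lower (-2.61). The summed ependymal markers were at 140 to 242 CPM in dorsal-marked and 202 to 274 CPM in ventral-marked cells, against 6720 to 8742 CPM in ependymal-like cells. The summed astrocyte markers were at 2258 to 3262 CPM in dorsal-marked and 3185 to 3746 CPM in ventral-marked cells. Both sums were lower on the dorsal side in each of the 5 libraries. The summed NSC markers were lower there in each library but control library 2 (7825 against 7610 CPM). The summed oligodendrocyte markers were at 613 to 1394 and 500 to 934 CPM. The part of these markers in the differences was not tested.

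**Figure D2:**
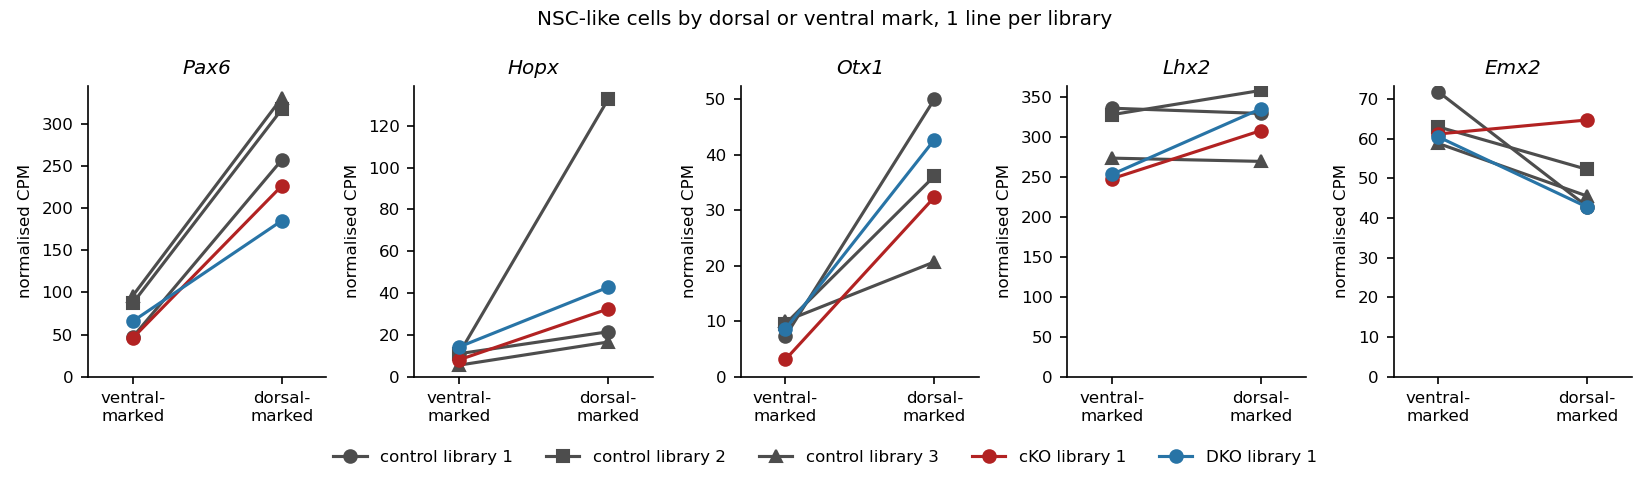
Normalised CPM of 5 members (linear axis from 0) in ventral-marked (Nkx2-1 or Nkx6-2) and dorsal-marked (Emx1) NSC-like cells, with a line for each of 5 libraries. Pax6 and Otx1 were higher on the dorsal side in every library without overlap, while the lines for Lhx2 and Emx2 had no common direction.

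In NSC-like cells, Pax6 and Emx1 were lower in every Prdm16 cKO library than in every control library, and Lhx2 was lower in cKO libraries 2 and 3, but 0 of the 9 members passed edgeR's quasi-likelihood test over all genes when the 3 cKO libraries were compared with the 3 controls. That test called 0.172% of 14503 genes (25). At an unadjusted p under 0.05 it had 3 members, all lower in cKO, among 1987 genes, and DESeq2 called 547 genes with 2 members, Pax6 and Emx1. The median log2 fold change was -0.42 over the 9 members and -0.01 over all genes tested.

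Pax6 was counted at 115, 138 and 133 CPM in control libraries 1 to 3, at 101, 51.9 and 56.4 CPM in cKO libraries 1 to 3. The DKO library was at 102 CPM. The fold change of cKO against control was -0.80 ± 0.23 on the log2 scale (edgeR adjusted p = 0.149). Emx1 was counted with 32, 32 and 58 UMIs in the controls (4.76, 7.10 and 5.54 CPM), with 14, 0 and 3 in the cKO libraries (2.45, 0 and 0.392 CPM) and with 27 in the DKO library (2.94 CPM). Its pooled level in cKO was 0.189 of that in controls, with a 95% interval of 0.106 to 0.315 that covers counting error only (log2 fold change -2.35 ± 0.67, edgeR adjusted p = 0.143). Pax6 and Emx1 were thus 2 of 9 members without overlap between the genotypes, where 8.21% of all genes had every cKO library below every control. In an exact permutation test on log2(CPM + 1) both reached p = 0.1 (two-sided), the smallest that 3 against 3 can give.

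Lhx2 stood at 392.3, 344 and 282 CPM in the controls, against 297, 174 and 138 CPM in cKO and 297 CPM in DKO (log2 fold change -0.65 ± 0.25, edgeR adjusted p = 0.263). cKO library 1 lay above control library 3, and the other cKO libraries lay below all controls. Hopx ran at 22.3, 29.1 and 16.7 CPM against 24.15, 8.59 and 12.9 CPM and 22.9 CPM in DKO, with the same split (-0.42 ± 0.33, edgeR adjusted p = 0.632). Emx2 was at 66.2, 50.6 and 49.2 CPM against 60.7, 44.1 and 29.4 CPM, overlapping (-0.22 ± 0.22, edgeR adjusted p = 0.718). Otx1 gave 21.1, 21.7 and 17.0 CPM in controls against 20.8, 16.8 and 25.5 CPM in cKO, with no common direction (0.21 ± 0.20, edgeR adjusted p = 0.698).

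The ventral members did not separate the genotypes. Nkx6-2 was at 61.9, 51.5 and 67.4 CPM in controls, at 78.0, 44.4 and 71.4 CPM in cKO and at 60.7 CPM in DKO (0.20 ± 0.21, edgeR adjusted p = 0.740), with cKO libraries on both sides of the controls. Nkx2-1 was counted with 24 UMIs over the control and 17 over the cKO libraries, a ratio of 0.959 with a counting interval of 0.483 to 1.86. Zic1 was at most 2.39 CPM in any library and was not told apart from background, as described above.

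Without cKO library 1, edgeR's test called 1686 of 14522 NSC-like genes, 654 of them lower in cKO (4.5%), and 4 of the 9 members were among those. Pax6 was then lower by -1.13 ± 0.18 on the log2 scale (edgeR adjusted p = 0.00031), Lhx2 by -1.004 ± 0.20 (adjusted p = 0.00205), Hopx by -0.85 ± 0.26 (adjusted p = 0.0425) and Emx1 by -4.13 ± 0.66 (adjusted p = 0.000287). The Emx1 value rests on 3 UMIs in cKO library 3 and none in library 2, a pooled ratio of 0.0517 with a counting interval of 0.0105 to 0.155. Leaving out cKO library 1 is a comparison of 2 libraries with 3, made among 7 omissions of a single library.

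The share of cells with a UMI was compared after each cell was thinned to 2000 UMIs. Pax6 was found in 20.7%, 26.4% and 24.2% of thinned NSC-like cells in controls and in 18.7%, 10.4% and 10.2% in cKO, and Lhx2 in 52.7%, 48.2% and 44.4% against 44.1%, 24.4% and 22.8%. The genotypes did not overlap for either gene by this measure, although the Lhx2 levels did. For Emx1 it was the reverse, as its thinned shares overlapped, at 1.38%, 1.41% and 0.562% in controls and 0.707%, 0% and 0.157% in cKO. The Lhx2 shares were nearly level between control library 3 (44.4%) and cKO library 1 (44.1%). For both Pax6 and Lhx2 an exact permutation test on the shares gave p = 0.1 (two-sided), with an adjusted p of 0.6. Shares were thinned for the members only, so that no value over all genes stands beside them. Within the libraries counted with Cell Ranger 6.0.1 (2 per genotype) the log2(CPM + 1) difference of cKO minus control was -0.79 for Pax6, -1.88 for Emx1 and -0.69 for Lhx2, and within those counted with version 6.1.1 (1 per genotype) -1.23, -2.23 and -1.02. The direction was the same within both versions. The summed astrocyte markers moved as well, at 3362 to 3830 CPM in controls and 3683, 5270 and 4865 CPM in cKO libraries 1 to 3, and the summed neuroblast markers were at 560 to 760 CPM against 509, 303 and 323 CPM. Their part in the result was not tested.

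**Figure D3:**
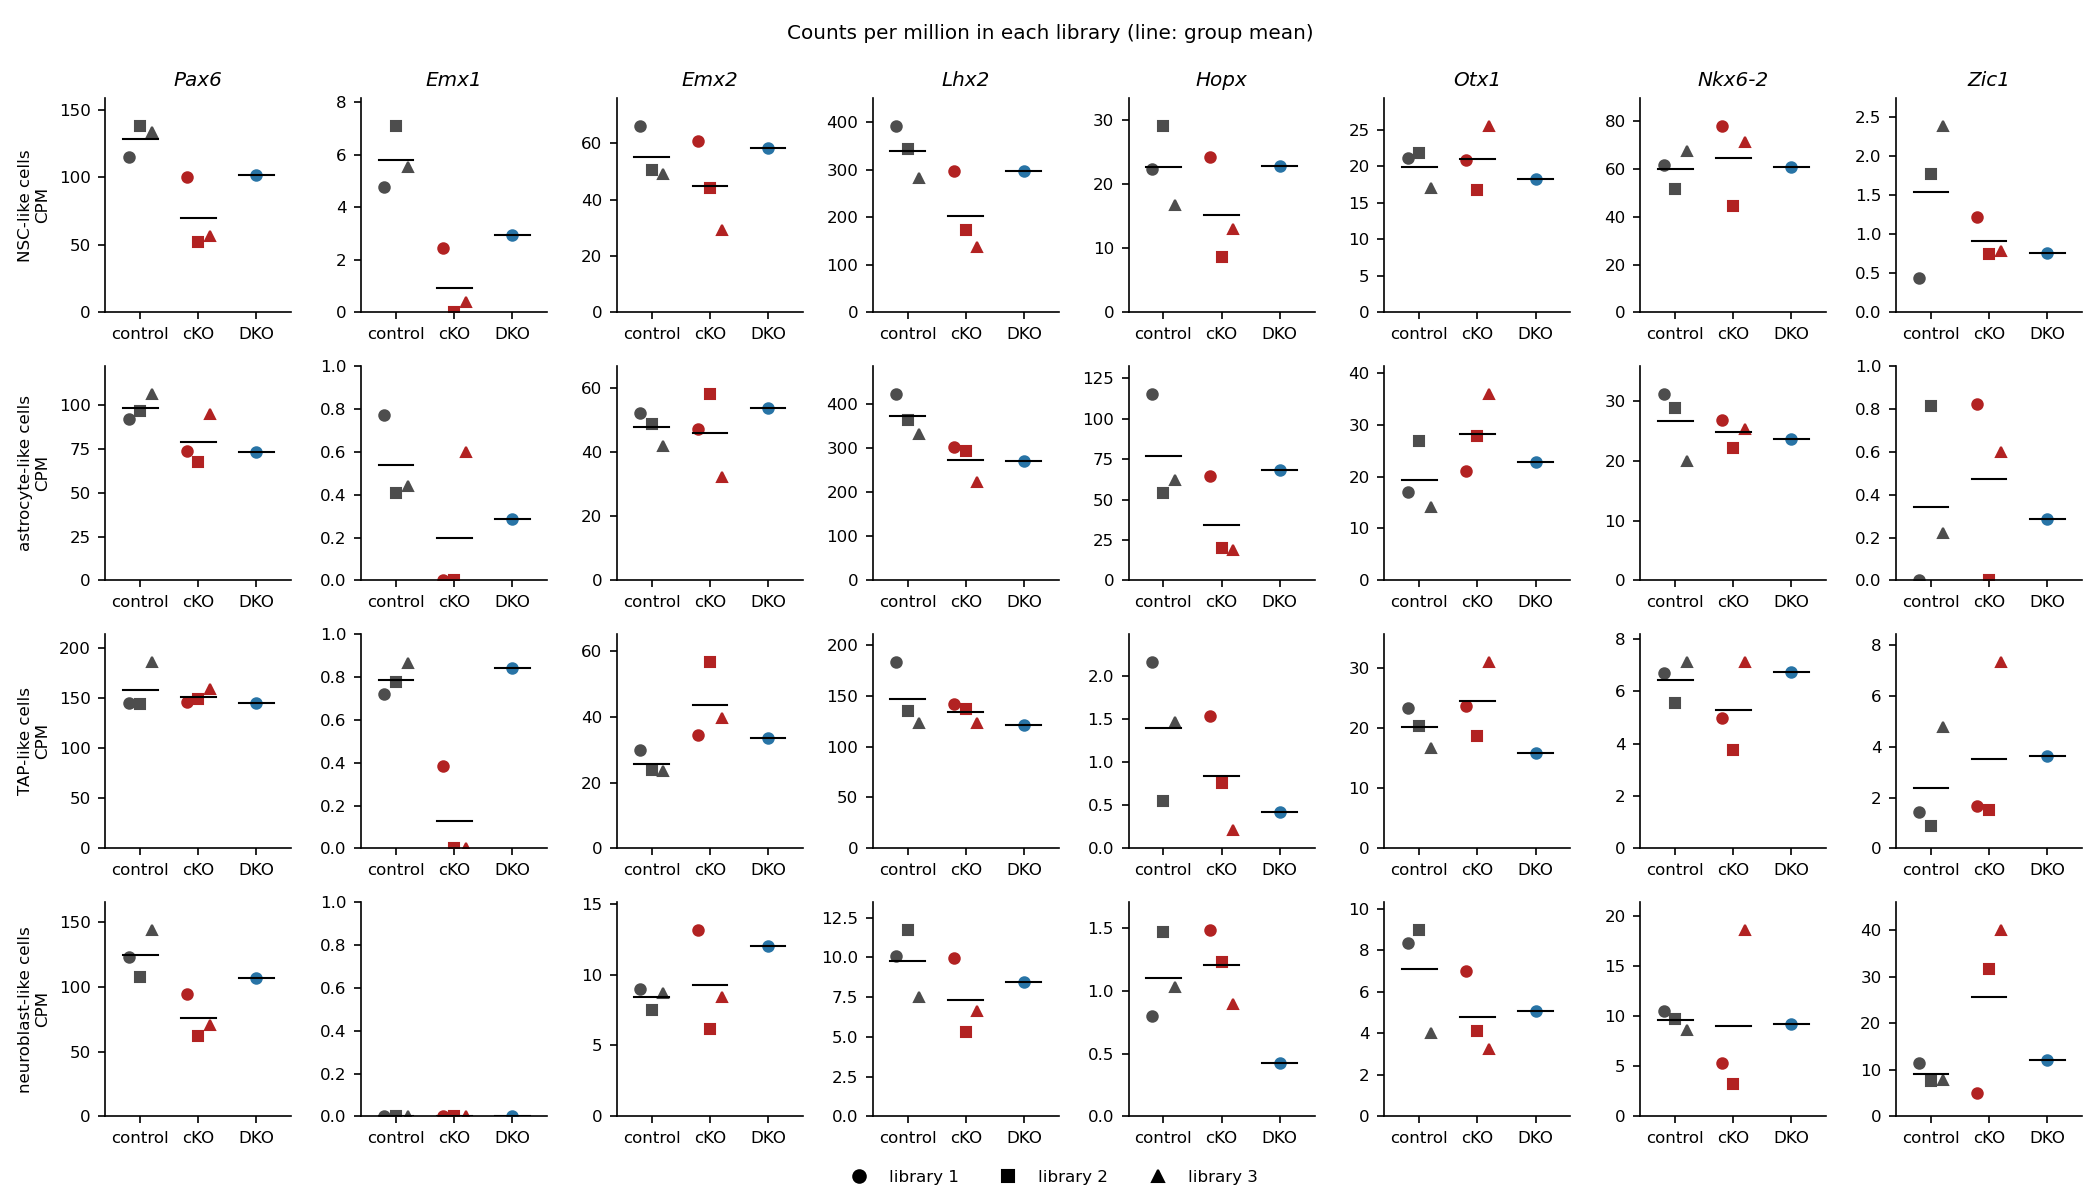
CPM (linear axis from 0) of 8 members in each library by genotype, with a row for each of NSC-like, astrocyte-like, TAP-like and neuroblast-like cells and a line at the mean of each group. In NSC-like cells Pax6 ran from 115 to 138 CPM in controls and from 51.9 to 101 CPM in cKO, with cKO library 1 the nearest to the controls.

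Other dorsal and ventral genes were read from companion lists, and edgeR's test called 0 of them in NSC-like cells. Of 14 dorsal companions 5 were tested, and 2 of these, Fezf2 and Dmrta2, lay lower in every cKO library than in every control after TMM scaling, the scale of all such counts over genes here. The median log2 fold change of the 5 was -0.88. Without that scaling Fezf2 ran at 44.3, 50.1 and 31.9 CPM in controls against 32.4, 21.3 and 12.9 CPM in cKO, so that cKO library 1 lay just above control library 3. Dmrta2 ran at 9.22, 7.32 and 8.21 CPM against 5.78, 2.24 and 4.05 CPM. Gli3 did not move with them, at 57.6 to 68.7 CPM against 54.7 to 64.2 CPM. Of 20 ventral companions 16 were tested, with 4 lower without overlap and a median of -0.56, and of 17 further regional genes 11 were tested, with 1 lower without overlap and a median of -0.19. Crym, the thyroid hormone-binding crystallin on the ventral list, was at 824, 751 and 739 CPM in controls, at 791, 114 and 44.6 CPM in cKO and at 434 CPM in DKO. cKO library 1 was among the controls for Crym and the other cKO libraries far below. Meis2, a cofactor of striatal and olfactory interneuron fates, ran at 458, 441 and 627 CPM against 432, 401 and 401 CPM. Of the regional genes, Nr2f1 was at 122, 135 and 105 CPM against 115, 88.9 and 94.3 CPM, overlapping. Lower counts in cKO libraries 2 and 3 were thus found for genes on the ventral list as well as on the dorsal list, while Nkx6-2 was not lower in both.

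In astrocyte-like cells, which in the V-SVZ share most of the stem cell programme, 0 of the 6 members tested passed edgeR's test, which called 1.27% of 12332 genes (157, and 215 by DESeq2 with 0 members). At an unadjusted p under 0.05 there was 1 member lower, Lhx2, and 1 higher, Otx1, among 1257 genes. Lhx2 was at 422, 364 and 331 CPM in controls and at 302, 292 and 222 CPM in cKO, with 270 CPM in DKO (log2 fold change -0.45 ± 0.18, edgeR adjusted p = 0.370). It was the only member with every cKO library below every control here, where 7.36% of all genes did so. Otx1 ran at 17.0, 26.8 and 14.05 CPM against 21.0, 27.8 and 35.9 CPM, overlapping (0.61 ± 0.26, edgeR adjusted p = 0.423).

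Hopx, which astrocyte-like cells held at a higher level than NSC-like cells, was at 115, 54.1 and 62.3 CPM in controls and at 64.3, 19.9 and 18.8 CPM in cKO, with 68.2 CPM in DKO (-1.11 ± 0.61, edgeR adjusted p = 0.655). cKO library 1 lay within the controls and cKO libraries 2 and 3 well below them. Without cKO library 1 Hopx was lower by -1.99 ± 0.31 (edgeR adjusted p = 0.0012), the only member called there, with 1.85% of 12493 genes lower. After thinning, 15.1%, 9.80% and 10.8% of control astrocyte-like cells and 12.2%, 0.99% and 1.56% of cKO cells held a Hopx UMI. Pax6 (92.2, 96.8 and 106 CPM against 73.8, 67.5 and 94.8 CPM), Emx2 (log2 fold change -0.09) and Nkx6-2 (-0.05) overlapped between genotypes. With the replicate number as a block, Hopx passed with all libraries (-1.27, edgeR adjusted p = 5e-06), although the numbers were not shown to pair the libraries.

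In TAP-like cells, the dividing precursors, Emx2 was higher and Nkx2-1 was lower in every cKO library than in every control, while Pax6 and Lhx2 were level. Summed neuroblast markers were at 4420 to 5256 CPM in control TAP-like cells, beside 3496 to 4706 CPM for summed TAP markers. The border of this class with neuroblasts is thus a matter of degree. edgeR's test called 0% of 14190 genes here, so 0 of the 8 members tested passed. At an unadjusted p under 0.05 it had 921 genes with 1 member higher and 1 lower, and DESeq2 called 72 genes with 1 member, Emx2. Emx2 was at 30.1, 23.8 and 23.5 CPM in controls, at 34.5, 56.7 and 39.7 CPM in cKO and at 33.5 CPM in DKO (log2 fold change 0.81 ± 0.18, edgeR adjusted p = 0.507). It was 1 of 8 members above without overlap, where 5.61% of all genes were. After thinning, 4.45%, 4.17% and 3.01% of control and 6.55%, 6.80% and 6.30% of cKO TAP-like cells held an Emx2 UMI, against 7.45% in DKO. The summed NSC markers, of which the NSC-like cells hold more, were also higher in every cKO library here, at 973, 1141 and 1616 CPM against 833, 702 and 765 CPM in controls, and their part in the result was not tested. Without cKO library 1 Emx2 was called (0.99 ± 0.18, edgeR adjusted p = 0.0099), where 0.998% of genes were higher. The order was the opposite of that in NSC-like cells, where Emx2 had a fold change of -0.22, but the difference between the cell types was not tested.

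Nkx2-1 was counted with 12, 13 and 11 UMIs in control TAP-like cells and with 0 in each of the 3 cKO libraries, while the DKO library held 24. The 36 control UMIs came from 14 of 1796 cells, against 0 of 938 cKO cells. With a floor of 3 counts put in for the cKO libraries, its level would be 5.38-fold lower in cKO. The 95% counting interval of the ratio of cKO to control reached 0.241, a smaller difference than the floor gives. Both cover counting error only and take UMIs as independent, although these came from few cells. Nkx2-1 was 1 of 8 tested members below without overlap, where 6.07% of all genes were, and did not pass edgeR's test (adjusted p = 0.507). With 0 UMIs in cKO it entered that test through control and DKO counts only, so its place among the 8 is not read as a result. Emx1 was as rare, with 7, 7 and 13 UMIs in controls, 3, 0 and 0 in cKO and 10 in DKO, and was below the filter of the test. Its level was also lower without overlap, at 0.719 to 0.864 CPM in controls and 0 to 0.382 CPM in cKO.

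Pax6 was at 145, 144 and 186 CPM in control TAP-like cells against 146, 148 and 159 CPM in cKO (-0.01 ± 0.16, edgeR adjusted p = 0.994) and Lhx2 at 183, 135 and 123.4 CPM against 142, 137 and 123.3 CPM (-0.06 ± 0.14, edgeR adjusted p = 0.957). Otx1, at 23.3, 20.4 and 16.8 CPM against 23.7, 18.8 and 31.04 CPM, overlapped. Of the dorsal companions 9 were tested and 0 called by edgeR's test, with a median of 2.76. At an unadjusted p under 0.05, 5 were higher and 1 lower, among 921 genes of any kind. The filter on low counts keeps genes that are high in a single group. Neurod1, at most 0.133 CPM in controls, entered the test through other libraries. The median and the count of higher genes can be tilted upward by this and are not read as a result. Tfap2c was at 1.75, 0.997 and 0.731 CPM in controls and at 2.55, 21.8 and 19.4 CPM in cKO, Neurog2, the proneural factor of the pallium, at 1.64, 0.221 and 0.798 CPM against 1.91, 12.4 and 9.49 CPM. Neurod1, a factor of differentiating glutamatergic neurons, was at 0.103, 0 and 0.133 CPM against 1.40, 8.27 and 7.98 CPM. Neurog2, Neurod1 and Eomes were named after their values were seen. cKO libraries 2 and 3 had the higher levels of Tfap2c, Neurog2 and Neurod1. Some other dorsal companions did not rise with them, among them Fezf2, Dmrta2, Eomes and Gli3. Fezf2 was at 4.31, 3.88 and 3.72 CPM in controls and at 2.55, 0 and 1.94 CPM in cKO, without overlap, and Dmrta2 at 15.3, 18.3 and 9.97 CPM against 13.3, 2.63 and 5.61 CPM. Eomes, the T-box factor of pallial intermediate progenitors, ran at 7.60, 6.53 and 4.52 CPM against 3.19, 8.27 and 0.647 CPM, and Gli3 at 28.9, 20.3 and 24.5 CPM against 29.3, 19.9 and 24.1 CPM, both overlapping. The ventral companions had a median of -0.18 over 17 tested and the regional ones of -0.18 over 13, again with 0 called.

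In neuroblast-like cells, the migrating daughters, Pax6 was lower in every cKO library and Zic1 was high in cKO libraries 2 and 3. edgeR's test called 0.0295% of 13579 genes (4, and 67 by DESeq2) and 0 of the 7 members tested, and DESeq2 called 0 members. At an unadjusted p under 0.05 edgeR's test had 1 member, which was lower, among 1182 genes. Pax6 was at 122.8, 108 and 144 CPM in controls, at 94.5, 61.9 and 70.8 CPM in cKO and at 107 CPM in DKO (log2 fold change -0.66 ± 0.19, edgeR adjusted p = 0.405). It was 1 of 7 members below without overlap, where 6.64% of all genes were, and without cKO library 1 it passed (-0.86 ± 0.20, edgeR adjusted p = 0.0364, with 0.805% of 13668 genes lower). The summed TAP markers were also lower in every cKO library of neuroblast-like cells, at 48.3, 23.4 and 26.7 CPM against 54.3, 58.4 and 51.8 CPM, and their part in the result was not tested. In TAP-like cells, which stand between NSCs and neuroblasts in the lineage, Pax6 had a fold change of -0.01, and the differences between the cell types were not tested.

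Zic1 was at 11.5, 7.69 and 7.87 CPM in control neuroblast-like cells, at 5.09, 31.6 and 40.0 CPM in cKO and at 12.2 CPM in DKO (1.56 ± 0.75, edgeR adjusted p = 0.617). cKO library 1 was below all controls and the other cKO libraries were far above them. Without cKO library 1 it was higher by 2.07 ± 0.23 (edgeR adjusted p = 0.000181, with 1.58% of genes higher). The counts came from 18, 11 and 35 cells with a Zic1 UMI in controls, 17, 30 and 102 in cKO and 67 in DKO, with library means of 1.41 to 4 Zic1 UMIs in such cells. These cells were 1.27%, 1.76% and 2.55% of the type in controls, 1.46%, 8.70% and 9.32% in cKO and 3.79% in DKO. The shares of the controls and of cKO library 1 lay below the pooled endothelial-like share given above. The part of free RNA in the Zic1 counts was not tested. The summed neuron markers moved in the same way, at 2642.5, 2163.5 and 2043 CPM in controls, and 1801, 2838 and 2861 CPM in cKO, and their part in the Zic1 result was not tested. At a finer clustering (resolution 0.3) the neuroblast-like class of cKO libraries 1 to 3 went from 1164, 345 and 1094 to 1064, 260 and 771 cells, against 1415, 624 and 1370 to 1342, 587 and 1280 in controls, and the log2 fold change of Zic1 was 1.33. Mural cells hold far more Zic1, so their markers were counted too. The summed mural markers were at 12.8 to 33.0 CPM in control and 17.0 to 33.7 CPM in cKO neuroblast-like cells, against 25547 to 36832 CPM in mural-like cells, and a mural UMI was found in 0%, 18.2% and 22.9% of the Zic1-positive cells of control libraries 1 to 3 and in 17.6%, 3.33% and 15.7% of those of cKO libraries 1 to 3. The other neuroblast-like cells of the same libraries had 4.01%, 16.3% and 16.2% and 6.36%, 18.1% and 15.1%, so that the Zic1-positive cells were not on the same side in all libraries. With all libraries in, 0 of the 7 members lay higher in every cKO library than in every control, where 6.73% of all genes did so.

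The remaining members overlapped between the genotypes in neuroblast-like cells. Nkx6-2 was at 10.6, 9.71 and 8.67 CPM in controls against 5.30, 3.28 and 18.6 CPM in cKO, with log2 fold change 0.08. Emx2 (0.23), Lhx2 (-0.31) and Otx1 (-0.47) did not pass edgeR's test, and Emx1 had 0 UMIs in every library. Nr2f1, the orphan nuclear receptor of the regional list, ran at 199, 211 and 143 CPM in controls and 150, 54.1 and 56.7 CPM in cKO, overlapping through cKO library 1. No companion was called in this type.

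**Figure D4:**
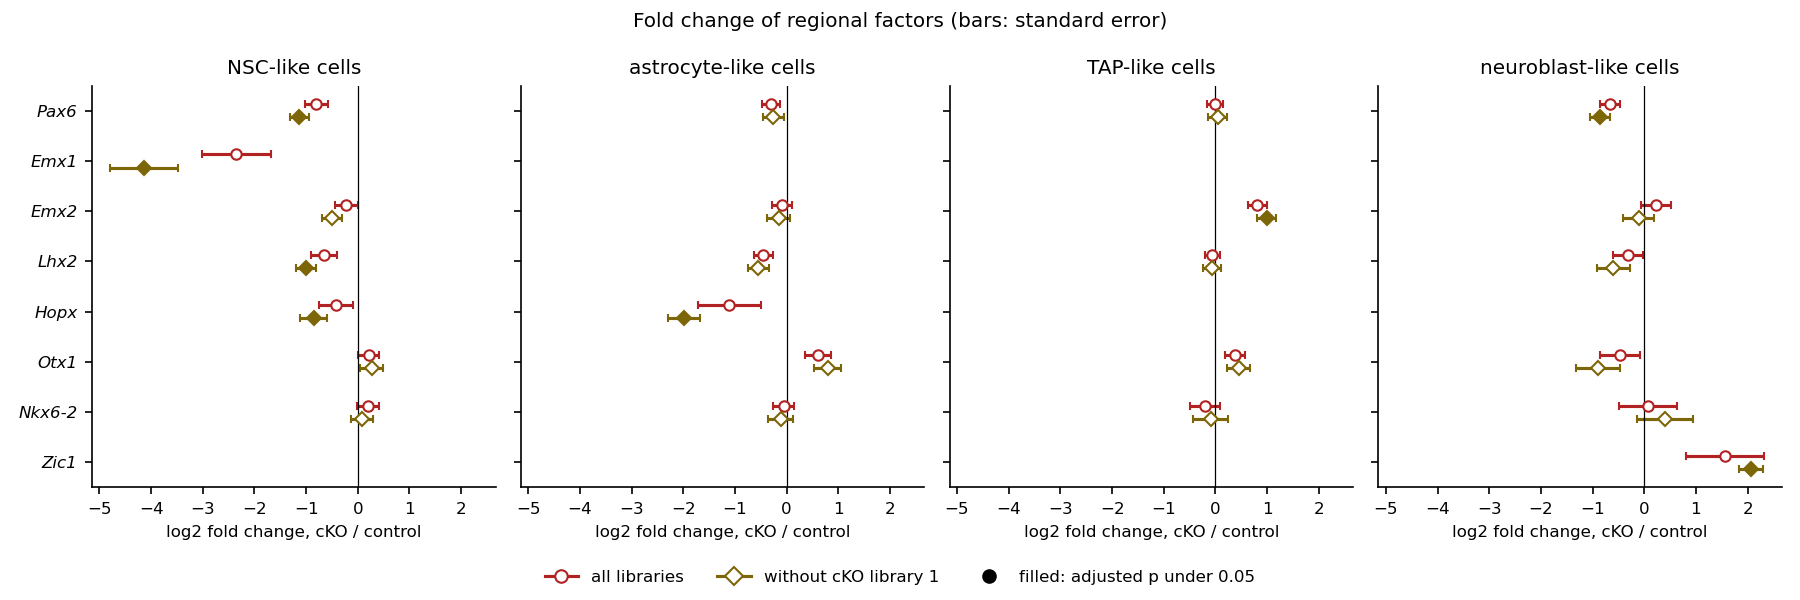
Log2 fold change of cKO against control with its standard error, for members with a mean of at least 5 CPM in control or cKO, in 4 cell types, with all libraries (circles) and without cKO library 1 (diamonds). Filled symbols passed an adjusted p of 0.05. Pax6 lay below 0 in NSC-like and neuroblast-like cells and near 0 in TAP-like cells, while Emx2 lay above 0 in TAP-like cells.

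The DKO library, in which Vcam1, a cell adhesion molecule of the stem cell niche, was floxed as well, is a single library and allows no test. In NSC-like cells it held Pax6 (102 CPM), Lhx2 (297 CPM), Hopx (22.9 CPM) and Emx1 (2.94 CPM) at levels near those of cKO library 1 (101, 297, 24.15 and 2.45 CPM) and above cKO libraries 2 and 3. Its Zic1 level in neuroblast-like cells (12.2 CPM) was close to the highest control and its Emx2 level in TAP-like cells (33.5 CPM) to the lowest cKO library. Effects of Vcam1 and differences between single libraries cannot be told apart here.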

How the data were processed

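Single-cell RNA sequencing libraries (10x Genomics, 3′) of micro-dissected mouse V-SVZ were read from 7 deposited matrices of raw counts, in which the authors had counted UMIs per gene and barcode. The submitters' processing notes name Cell Ranger 6.1.1 and mm10, and per the file headers the matrices of replicates 1 and 2 of both control and cKO came from version 6.0.1 and the remaining matrices from 6.1.1. The total number of UMIs per library was 45758003 to 141353017. The depth sets the precision of rare genes, and counting intervals and floors (3 counts, 95% level) cover counting error only.

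Barcodes with 500 to 7000 genes and at most 10% mitochondrial UMIs were kept. Pairs of libraries shared 2 to 70 cell barcodes. The highest values were 70 for control library 2 with cKO library 1, 61 for control library 1 with cKO library 1 and 50 for control libraries 1 and 2. Next came control library 3 with the DKO library (47). cKO library 1 shared 12 and 14 with cKO libraries 2 and 3. The source of shared barcodes and their part in the results were not tested. Cells were clustered in Seurat 5.3.0 (1973 variable genes, 30 principal components, resolution 0.15), and a cluster was named X-like when at least 3 of that type's markers were raised in it, at least 1 of them among its 20 leading genes. It stayed unnamed when another such type also had 2 or more markers among those genes, or when it was shallow and none of the markers was among its 10 leading genes. Doublets were called with scrublet in scanpy 1.11.5 (1043 cells, 2.41%), kept in the main comparison and left out in an alternative. For each cell type, UMI counts were added up within a library (at least 10 cells) and tested with edgeR 4.0.16 (quasi-likelihood, TMM, Benjamini-Hochberg adjustment over all genes tested, threshold 0.05) in R 4.3.3, with DESeq2 1.42.0 as an alternative. The fit held all groups, with the DKO library contributing to no contrast. The script was tested on simulated counts. Single values were compared by exact permutation tests in scipy 1.17.1.

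Members are named in each cell type. Of the companion genes (14 dorsal, 20 ventral and 17 regional), those called in a comparison, at most 10 with the largest fold change, and the 3 of each list with the highest control level in NSC-like cells are named, besides 3 genes nearest each member in their profile over cell types (Pearson r of log2(CPM + 1), genes with at least 5 CPM in a type). The members, lists and markers were chosen with earlier results of these data known. Alternatives were another test, no filter on low counts, blocks for replicate number or Cell Ranger version, each library left out, stricter cell filters, other clusters and gates on single markers, and a total without ribosomal-like, Malat1 and mitochondrial genes. Promoter windows were taken from RefSeq (GRCm38.p6) and gene positions from the GRCm38 annotation. Some companion and neighbouring genes that this rule names are not reported here.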

Additional observations from a re-analysis of the deposited data

Results flagged for a closer look

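Lhx2 was flagged by a rule that looked for members apart from the controls in opposite directions in different cell types, here astrocyte-like and ependymal-like cells. In astrocyte-like cells the log2 fold change of cKO against control was -0.45 ± 0.18, and every cKO library lay below every control, where 7.36% of all genes did so. In ependymal-like cells, a comparison added after seeing the data, it was 0.21 ± 0.14 (edgeR adjusted p = 0.768), and every cKO library lay above every control after TMM scaling, at 70.6, 63.1 and 64.7 normalised CPM against 62.0, 52.4 and 55.6. Without that scaling the ependymal values overlapped, at 73.3, 61.2 and 60.7 CPM in cKO against 66.6, 54.4 and 53.7 CPM in controls. The share of all genes lying above every control was not computed in ependymal-like cells. Neither value passed edgeR's test, and the difference between the cell types was not tested.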

How the results depend on the processing

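The number of genes and members called depended on the processing and on cKO library 1. With each library left out in turn, edgeR's test called 0 to 1686 genes and 0 to 4 members in NSC-like cells, 23 to 552 genes and 0 to 1 members in astrocyte-like cells, 0 to 175 and 0 to 1 in TAP-like cells and 1 to 326 and 0 to 2 in neuroblast-like cells, the highest without cKO library 1 in each type. In dorsal-marked against ventral-marked cells 125 to 155 genes were then higher and 160 to 221 lower. DESeq2 called 547 genes and 2 members in NSC-like cells, 72 and 1 in TAP-like cells, 67 genes in neuroblast-like cells, and 131 genes higher and 98 lower between the marks. With no filter on low counts the calls were 537 genes and 2 members (NSC-like), 468 genes (astrocyte-like), 183 genes and 2 members (TAP-like) and 253 genes and 1 member (neuroblast-like). With Cell Ranger version as a block, 242 astrocyte-like and 17 neuroblast-like genes were called. NSC-like calls were 0 with at most 5% mitochondrial UMIs, at resolution 0.3, without ribosomal-like, Malat1 and mitochondrial genes, and with the open gate described next. The gate on single markers called 0 astrocyte-like and 2 neuroblast-like genes. The open gate, chosen after seeing the data to keep cells with markers of another type, called 50 astrocyte-like and 1 neuroblast-like genes, and resolution 0.3 called 1 neuroblast-like gene. The causes were not tested.

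The labels' replicate numbers were not shown to pair the libraries. In NSC-like cells, deviations from the group means correlated at 0.240, -0.0128 and 0.333 for numbers 1, 2 and 3. In neuroblast-like cells the values were 0.233, -0.108 and 0.439, so that numbers 1 and 3 went together and number 2 did not. A replicate block called 573 genes and 1 member (Lhx2, -0.71, edgeR adjusted p = 0.0398) in NSC-like cells, 541 genes and 1 member (Hopx) in astrocyte-like cells, 66 genes in TAP-like cells and 137 in neuroblast-like cells.

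Small fold changes changed sign. Nkx6-2 was at -0.016 in NSC-like cells under the open gate, at 0.092 and 0.30 in astrocyte-like cells under the gate and the open gate, and at -0.14, -0.16, -0.41 and -0.51 in neuroblast-like cells under the replicate block, the version block, the gate and the open gate. Emx2 was at 0.061 in astrocyte-like cells at 5% mitochondrial UMIs. In TAP-like cells Pax6 was at 0.010 under DESeq2, 0.014 under the replicate block and 0.0061 under the version block, and at 0.15 and 0.043 under the gates, and Otx1 at -0.11 under the gate. In neuroblast-like cells Lhx2 was at 0.010 and 0.18 under the gates and Otx1 at 0.33 under the gate. With a library left out the ranges were -0.0045 to 0.34 for Otx1 in NSC-like cells, -0.23 to 0.12 for Emx2 and -0.20 to 0.041 for Nkx6-2 in astrocyte-like cells, -0.12 to 0.18 for Pax6 and -0.13 to 0.066 for Lhx2 in TAP-like cells, and -0.11 to 0.43 for Emx2 and -1.05 to 0.42 for Nkx6-2 in neuroblast-like cells. The gate could not be run in NSC-like cells, where only 1 cKO library had 10 such cells, nor Nkx2-1 alone as the ventral mark. By the gate, NSC-like cells numbered 149, 22 and 68 in controls and 118, 6 and 0 in cKO libraries 1 to 3. Under the open gate they were 5.83%, 4.02% and 4.37% of kept cells against 4.25%, 1.499% and 0.982%. Open-gate astrocyte-like cells were 7.63%, 3.47% and 7.199% against 10.4%, 17.8% and 13.5%. Summed NSC markers in the NSC-like cluster overlapped, at 6483 to 6897 CPM against 6590, 7499 and 7353 CPM. The part of these differences in the NSC-like results was not tested. Emx1, Nkx2-1 and Zic1 were counted in few cells of each type, so that the differences given for them above rest on few cells.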

Other observations

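The dorsal-marked and ventral-marked NSC-like cells also differed in genes that are on none of the lists and were chosen here after their values were seen. Pla2g7, a secreted phospholipase that degrades platelet-activating factor, was higher in dorsal-marked cells in all 5 libraries (897.97 to 1319 CPM against 205 to 383 CPM, log2 difference 2.11 ± 0.11, edgeR adjusted p = 6.36e-59), as were Rlbp1, a retinaldehyde-binding protein (2.30 ± 0.19), C1ql1, a complement-related secreted protein (2.79 ± 0.28), and Inhba, the activin A subunit (3.16 ± 0.36). Prss56, a serine protease, was at 0, 4.02, 8.28, 48.6 and 0 CPM in dorsal-marked cells and at 252, 371, 277, 315 and 106 CPM in ventral-marked cells (-5.22 ± 0.31, edgeR adjusted p = 2.65e-58). Notum, a secreted Wnt antagonist, and Sp5, a zinc-finger Wnt target, were also lower (-4.21 ± 0.31 and -5.07 ± 0.73). Slc1a3, the astroglial glutamate transporter, was lower by -0.94 ± 0.09 and in every library. These comparisons hold within libraries and say nothing about genotype.

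In cKO library 1, 226 NSC-like cells held a Prm1 UMI and 634 did not, with median depths of 6750 and 4919.5 UMIs. Cells with a Prm1 UMI had Lhx2 at 237 CPM against 332 CPM in the others, Pax6 at 86.1 against 109 CPM, Crym at 499 against 959 CPM and Nkx6-2 at 131 against 47.7 CPM. In the DKO library the split ran the same way for these 4 genes (Lhx2 at 234 against 353 CPM, Pax6 at 86.6 against 115 CPM, Crym at 309 against 545 CPM, Nkx6-2 at 73.6 against 49.3 CPM). In cKO library 2 Pax6 ran the other way (53.2 against 46.5 CPM) and Lhx2 differed less (172 against 182 CPM), with Crym at 71.7 against 293 CPM and Nkx6-2 at 46.3 against 36.8 CPM. In cKO library 3 Crym was at 44.6 CPM on both sides, with Lhx2 at 135 against 156 CPM, Pax6 at 55.0 against 63.7 CPM and Nkx6-2 at 74.7 against 53.7 CPM. Cells with a Prm1 UMI were deeper in all 4 libraries, and no test was made.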
